A study of Mus musculus with 7 samples.

Results

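The Ugt2 and Ugt3 genes encode UDP-glycosyltransferases, enzymes of the endoplasmic reticulum that couple a sugar to a lipid-soluble compound so that it can leave in bile or urine. They were chosen by name: a probe set counted when every gene symbol in its platform annotation was in the list Ugt2a3, Ugt2b1, Ugt2b5, Ugt2b34, Ugt2b35, Ugt2b36, Ugt2b37, Ugt2b38, Ugt3a1 and Ugt3a2. This gave 12 of the 35556 probe sets on the array and at least 1 for each of the 10 genes, and the probe set with the highest mean over the 7 arrays stood for each gene. All values are log2 expression values, and a log2 change is the Trpm6-deficient mean minus the control mean, so that a negative change means a lower value in mutants. The array livers came from 3 Trpm6-deficient mice (Trpm6 Δ17/Δ17;Sox2-Cre), in which Cre driven by the Sox2 promoter acts in the early embryo, so that the deletion covers the whole animal and not the liver alone. The 4 control mice (Trpm6 fl/+) had 1 floxed and 1 wild-type allele, and no Cre is named for them. The floxed allele came from targeted embryonic stem cells, and an effect of Cre itself and of the deletion cannot be told apart in these groups. All 7 were male littermates on a C57BL/6 background, and 1 array was run per mouse. Trpm6-deficient 1 and 3 and control 3 and 4 were 13 weeks old, and Trpm6-deficient 2 and control 1 and 2 were 12 weeks old.

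Glucuronidation is one of the main conjugation routes of the liver. UGT enzymes of the 2B subfamily transfer glucuronic acid from UDP-glucuronic acid onto steroids, bile acids, fatty acids and drugs, and the genes lie side by side as products of repeated duplication. The Ugt3 enzymes belong to the same superfamily but use other sugars: in humans UGT3A1 takes UDP-N-acetylglucosamine, and UGT3A2 takes UDP-glucose or UDP-xylose. Hepatocytes are the main liver cells that carry these enzymes.

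Array medians differed by 0.05 at most. Trpm6, the targeted channel kinase gene, read 5.50, 5.37 and 5.50 in Trpm6-deficient livers and 5.53, 5.51, 5.50 and 5.50 in control livers. All these values lay below the array medians (6.43 to 6.48), so a loss of its RNA could hardly show. Its probe set was not checked against the deleted exon. The mean of 5 hepatocyte markers lay between 14.07 and 14.14 in Trpm6-deficient and between 14.03 and 14.16 in control livers. The mean of 4 bile duct markers was 6.94 to 7.11 in Trpm6-deficient and 6.86 to 6.94 in control livers. These ranges were not apart, and those of 5 Kupffer cell, 4 sinusoidal endothelial and 4 stellate cell markers overlapped as well. Of the single markers, Krt19 of the bile duct (log2 change 0.33) and Reln (0.30) and Des (0.28) of stellate cells were higher with the unadjusted p held to 0.05. The others of these lists were not past that threshold: Krt7 (0.16), Sox9 (0.16), Epcam (-0.06), Lrat (-0.21) and Col1a1 (-0.03). A log2 change below 0 was found in 4 of 5 Kupffer cell and all 4 sinusoidal endothelial markers (49.7% of all probe sets), none past the threshold. The part of other cell types in the results was not tested. In whole liver, fewer cells of a type and less RNA per cell cannot be told apart.

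The 8 listed Ugt2 genes lie in 1 cluster on chromosome 5, in the order Ugt2b34, Ugt2b1, Ugt2b35, Ugt2b36, Ugt2b5, Ugt2b37, Ugt2a3 and Ugt2b38. This order was taken among the listed genes alone, and genes beyond them were not placed. Ugt3a1 and Ugt3a2 are neighbours on chromosome 15. Promoter sequence from RefSeq (GRCm38.p6) was at hand for 9 of the 10 genes. The 100 bases before the annotated start are shown for Ugt2b37, Ugt2b38 and Ugt2b5, whose promoters were the most alike in the family, for Ugt2b1, which with Ugt2b37 and Ugt2b38 had the lowest values in mutants relative to controls, and for Ugt2b36, a gene with little difference between the groups. Capitals mark the longest run that Ugt2b37, Ugt2b38 and Ugt2b5 have in common within 250 bases of the start. All 5 lie on the minus strand, at chr5:87254789-87254888 (Ugt2b37), chr5:87424204-87424303 (Ugt2b38), chr5:87140341-87140440 (Ugt2b5), chr5:86926504-86926603 (Ugt2b1) and chr5:87092556-87092655 (Ugt2b36).
Ugt2b37: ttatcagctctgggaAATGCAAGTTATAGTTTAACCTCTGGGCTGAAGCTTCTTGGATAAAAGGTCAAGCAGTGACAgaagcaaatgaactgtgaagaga
Ugt2b38: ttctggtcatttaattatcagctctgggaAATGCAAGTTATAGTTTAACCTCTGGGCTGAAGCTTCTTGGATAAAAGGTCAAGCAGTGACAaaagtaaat
Ugt2b5: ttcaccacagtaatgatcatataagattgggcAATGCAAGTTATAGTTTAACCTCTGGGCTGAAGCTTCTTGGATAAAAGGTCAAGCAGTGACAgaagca
Ugt2b1: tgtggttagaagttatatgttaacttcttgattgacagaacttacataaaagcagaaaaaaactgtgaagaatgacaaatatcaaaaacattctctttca
Ugt2b36: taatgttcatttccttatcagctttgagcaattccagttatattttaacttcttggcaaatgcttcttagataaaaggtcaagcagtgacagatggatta

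The run in capitals is 62 bases long and was found in no other promoter of the family and in no other mouse promoter of the same table. It spans bases 85 to 24 before the start in Ugt2b37, bases 71 to 10 in Ugt2b38 and bases 68 to 7 in Ugt2b5. Over the 250 upstream bases, Ugt2b37 and Ugt2b38 were 85.2% identical in a global alignment, Ugt2b5 and Ugt2b38 81.5%, and Ugt2b5 and Ugt2b37 73.0%. Ugt2b36 was 61.3% identical to Ugt2b38, with a longest shared run of 22 bases. Ugt2b1 was 53.6% identical to Ugt2b38, with a longest shared run of 8 bases. Ugt2b1 is thus not among the like promoters. Its log2 change was -0.91, that of Ugt2b37 was -0.99 and that of Ugt2b38 was -0.98. A link between promoter likeness and log2 change was not tested.

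Of 5 short motifs searched by exact letters on both strands in these 250 bases, the STAT5 motif TTCNNNGAA was in none of the 9 promoters, against 7.02% of 32851 mouse promoters. The direct repeat of AGTTCA with a spacer of 4 bases, a motif of the xenobiotic receptors, was also in none of the 9, against 0.00913% of all promoters. The C/EBP motif TTGCNNAA was found in Ugt2b5 and Ugt2b36 (9.56% of all promoters), and the HNF1 motif GTTAAT in Ugt2a3 and Ugt3a1 (6.43%). The TATA box TATAAA was found in Ugt3a1 (12.4%). The HNF1 motif and the TATA box, both present in Ugt3a1, did not overlap there. A window without these letters says nothing of the factor.

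Ugt2b1, Ugt2b37 and Ugt2b38 had the lowest values in Trpm6-deficient relative to control livers, at 50.2% to 53.3% of the control level, and in none of them did the groups overlap. With the adjusted p of limma held to 0.1, no gene of the family was called, where 0.129% of all probe sets were. With the unadjusted p held to 0.05, 3 of the 10 genes were lower and none was higher, where 3.03% of all probe sets were lower and 3.85% higher. Of the 10 genes, 9 had a log2 change below 0 (49.7% of all probe sets), with a median of -0.27, against 0.00 over all probe sets.

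Ugt2b1 encodes a hepatic 2B enzyme whose rat counterpart is known for the glucuronidation of bisphenol A. It read 12.32, 12.29 and 11.53 in Trpm6-deficient livers 1, 2 and 3, and 12.98, 12.99, 12.84 and 13.01 in control livers 1 to 4. The highest mutant liver lay clearly below the lowest control, and the controls stood close together (SD 0.08). The log2 change was -0.91 (standard error 0.20, 95% confidence interval -1.38 to -0.43, adjusted p = 0.379 from limma), which is 53.3% of the control level.

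Ugt2b38, a gene of the same subfamily and the last of the listed genes in the cluster, read 10.22, 10.46 and 9.60 in Trpm6-deficient livers, against 11.48, 11.11, 10.78 and 10.94 in control livers. Trpm6-deficient 2 was the closest to the controls, and the groups did not overlap. Its log2 change was -0.98 (standard error 0.25, 95% confidence interval -1.58 to -0.39, adjusted p = 0.455 from limma), or 50.6% of the control level. Ugt2b37, separated from Ugt2b38 by Ugt2a3 alone among the family, read 7.20, 7.30 and 6.39 in Trpm6-deficient livers, against 8.09, 8.11, 7.59 and 8.04 in control livers. Here control 3 lay below the other controls and still above every mutant. The Ugt2b37 mean of 7.53 was the lowest of the 10 genes, and its value in Trpm6-deficient 3 lay below the median of that array (6.48). The log2 change was -0.99 (standard error 0.25, 95% confidence interval -1.60 to -0.39, adjusted p = 0.455 from limma), or 50.2% of the control level. Which transcripts the probes of these near copies read was not examined, so signal of one in the probe set of another was not tested.

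**Figure D1:**
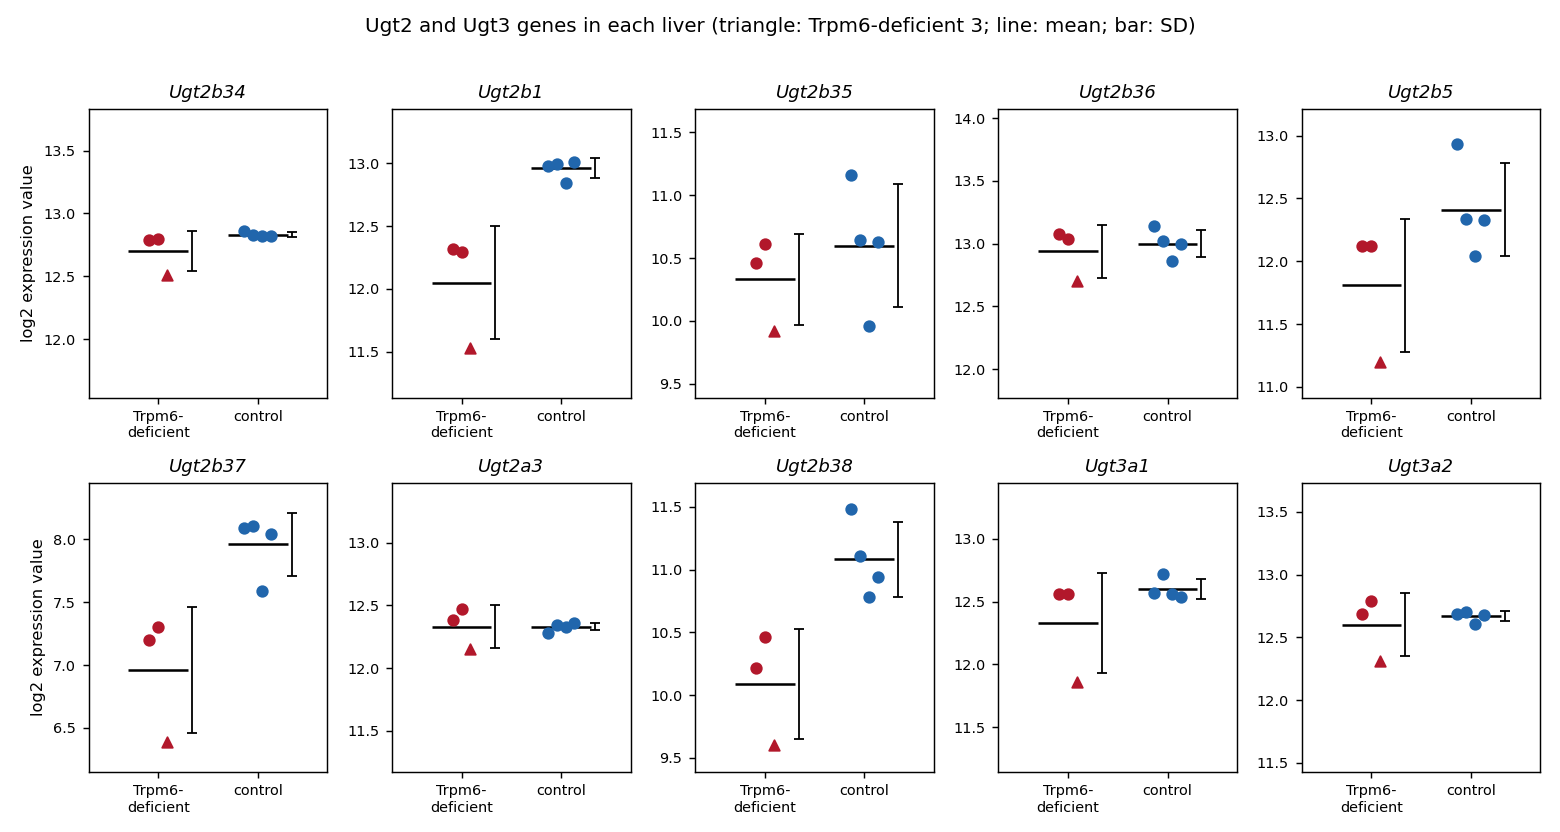
Log2 expression value (y axis, each panel spanning the same log2 range at its own level) of the 10 Ugt2 and Ugt3 genes, 1 point per liver, in Trpm6-deficient (left, n = 3) and control (right, n = 4) livers, with the mean as a line and the SD as a bar. Ugt2b1, Ugt2b37 and Ugt2b38 show a clear gap between the groups, and Trpm6-deficient 3, drawn as a triangle, is the lowest liver in all 10 panels.

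Ugt2b5, the remaining gene with the shared promoter run, read 12.12, 12.12 and 11.20 in Trpm6-deficient livers, against 12.93, 12.34, 12.04 and 12.33 in control livers. Control 3 was below 2 of the mutants, so the groups overlapped. The log2 change was -0.60 (standard error 0.30, adjusted p = 0.805 from limma). Its 95% confidence interval of -1.32 to 0.13 holds both no change and the changes seen in Ugt2b37 and Ugt2b38, and whether the genes differ from each other was not tested.

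Ugt2b35, the only Ugt2 gene of the family here that is read from the plus strand, was the most variable in the controls. It read 10.46, 10.61 and 9.92 in Trpm6-deficient livers, against 11.16, 10.64, 9.96 and 10.63 in control livers, so that a control and a mutant shared the low end. The log2 change was -0.27 (standard error 0.30, 95% confidence interval -0.99 to 0.46, adjusted p = 0.904 from limma).

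Ugt2b36, Ugt2a3 and Ugt2b34 hardly differed between the groups. Ugt2b36 read 13.08, 13.04 and 12.70 in Trpm6-deficient livers, against 13.14, 13.02, 12.86 and 13.00 in control livers, a log2 change of -0.06 (95% confidence interval -0.34 to 0.21, adjusted p = 0.941 from limma). Ugt2a3, whose human counterpart glucuronidates bile acids, read 12.38, 12.47 and 12.15 in Trpm6-deficient livers, against 12.28, 12.34, 12.33 and 12.36 in control livers. Mutant livers lay on both sides of the controls, and the log2 change was 0.01 (95% confidence interval -0.19 to 0.20, adjusted p = 0.998 from limma), its sign turning when arrays were rescaled. Ugt2a3 lies between Ugt2b37 and Ugt2b38 in the cluster. Ugt2b34, the first of the listed genes there, read 12.79, 12.80 and 12.51 in Trpm6-deficient livers, against 12.86, 12.83, 12.82 and 12.82 in control livers. Its groups did not overlap, but the gap was small and the log2 change was -0.13 (95% confidence interval -0.32 to 0.06, adjusted p = 0.837 from limma). With Ugt2b34, 4 of the 10 genes had every mutant liver below every control liver and none had every mutant above, where 2.38% of all probe sets were apart in the lower and 2.94% in the higher direction.

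In the Ugt3 pair on chromosome 15, Trpm6-deficient 3 lay below every control. Ugt3a1 is represented by a probe set annotated to both Ugt3a1 and Ugt3a2, its brightest, which read 12.56, 12.56 and 11.86 in Trpm6-deficient livers, against 12.57, 12.72, 12.56 and 12.54 in control livers. Trpm6-deficient 1 and 2 were level with the controls, and the log2 change was -0.27 (standard error 0.18, adjusted p = 0.851 from limma). The probe set annotated to Ugt3a1 alone read 11.35, 11.43 and 9.81 in Trpm6-deficient livers, against 11.41, 11.69, 11.34 and 11.46 in control livers, and its log2 difference was -0.61 (standard error 0.40, adjusted p = 0.848 from limma). A further joint probe set read 12.30, 12.31 and 11.60 in Trpm6-deficient livers and 12.30 to 12.46 in control livers. Ugt3a2 read 12.69, 12.79 and 12.31 in Trpm6-deficient livers, against 12.69, 12.70, 12.61 and 12.68 in control livers, and its log2 change was -0.07 (standard error 0.12, adjusted p = 0.932 from limma). Trpm6-deficient 2 lay above every control for Ugt3a2, and Trpm6-deficient 3 below every control. The dip in Trpm6-deficient 3 was thus seen in all probe sets of the pair, and was deepest in the one for Ugt3a1 alone.

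Trpm6-deficient 3 had the lowest value of the 7 livers in all 10 genes and in all 12 probe sets of the family. Over the whole array it was the lowest liver in 13.4% of probe sets, and in 22.3% of the 3921 probe sets with a mean of 10 or more. Its distance from the control mean ran from -1.57 (Ugt2b37) to -0.18 (Ugt2a3), with a median of -0.71, against medians of -0.09 in Trpm6-deficient 1 and -0.03 in Trpm6-deficient 2. Its hepatocyte marker mean of 14.12 was within the range of the controls. These markers had means from 13.88 (Cps1) to 14.38 (Alb), above the 95th percentile of every array, where differences can be understated. The share of hepatocytes in this liver was not tested. Among the controls, control 3 was the lowest for 7 of the 10 genes, and control 1 was 0.56 above the control mean for Ugt2b35, 0.52 for Ugt2b5 and 0.40 for Ugt2b38.

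**Figure D2:**
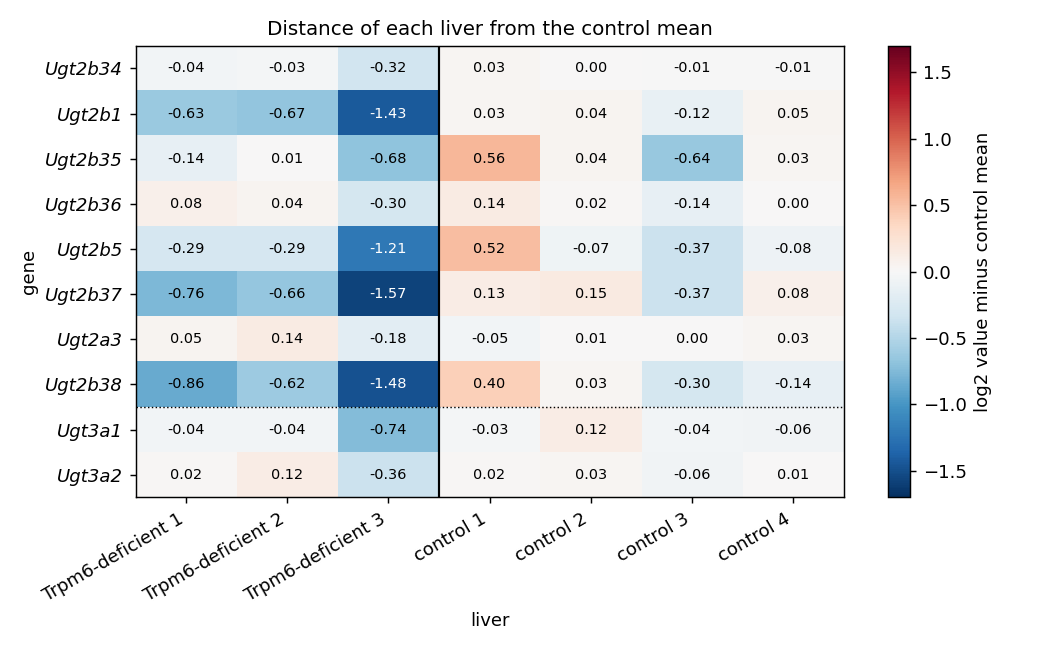
Log2 value minus the control mean for each gene (rows, in chromosome order, Ugt3 under the dotted line) and each liver (columns, Trpm6-deficient left of the black line, control right). Trpm6-deficient 1 and 2 are lower by 0.62 or more for Ugt2b1, Ugt2b37 and Ugt2b38 and within 0.29 of the control mean for the other genes, whereas Trpm6-deficient 3 is lower for every gene.

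Without Trpm6-deficient 3, the difference was present in the same 3 genes and smaller. The log2 change of Ugt2b1 was then -0.65 (standard error 0.07, 95% confidence interval -0.81 to -0.49, adjusted p = 0.165 from limma). That of Ugt2b37 was -0.71 (standard error 0.17, adjusted p = 0.602) and that of Ugt2b38 was -0.74 (standard error 0.21, adjusted p = 0.715), both from limma. Again no member was called with the adjusted p held to 0.1 (0.0394% of all probe sets were). With the unadjusted p held to 0.05, 3 were lower, where 2.70% of all probe sets were, and none was higher, where 3.10% were. The other changes lay between -0.29 (Ugt2b5) and 0.10 (Ugt2a3), those of Ugt2b36 and Ugt3a2 were 0.05 and 0.07, and the median over the 10 genes was -0.05. The -0.27 of all 7 livers therefore rests on Trpm6-deficient 3.

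**Figure D3:**
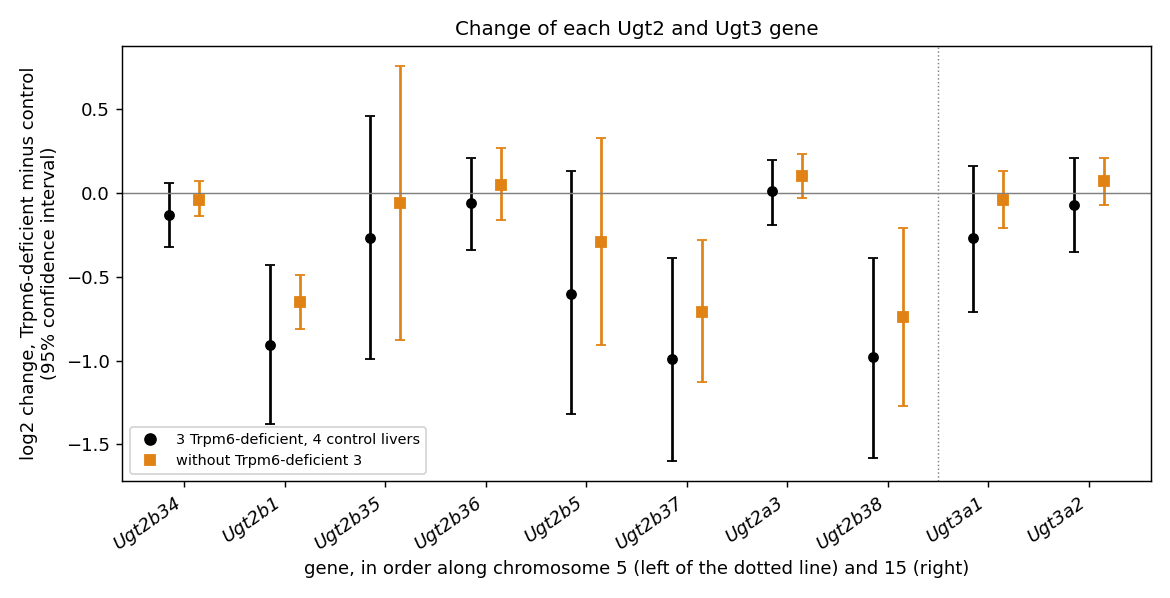
Log2 change (Trpm6-deficient minus control, y axis) with its 95% confidence interval for each gene in chromosome order, from all 7 livers (black circles) and without Trpm6-deficient 3 (orange squares). The intervals of Ugt2b1, Ugt2b37 and Ugt2b38 stay below 0 in both, at -0.91, -0.99 and -0.98 with all livers and at -0.65, -0.71 and -0.74 without Trpm6-deficient 3, and those of the other 7 genes include 0.

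The rest of the glucuronidation route was read from a list of 31 features: other UGT genes, the supply of UDP-glucuronic acid, the further use of glucuronic acid, hydrolysis, transport and regulators. No feature was called with limma's adjusted p held to 0.1, where 0.129% of all probe sets were. With the unadjusted p held to 0.05, 7 of the 31 were higher and 3 were lower, where 3.85% of all probe sets were higher and 3.03% lower. The median log2 change of the list was 0.01.

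The Ugt1a locus, which makes several enzymes from alternative first exons joined to a common end, was higher in every mutant liver. A single probe set annotated jointly to 8 Ugt1a genes, and so to none of them in particular, read 12.07, 11.95 and 11.91 in Trpm6-deficient livers, against 11.72, 11.68, 11.52 and 11.55 in control livers. All mutants were above all controls. The log2 change of 0.36 had a standard error of 0.07 (adjusted p = 0.328 from limma), and Trpm6-deficient 3 was close to the other mutants here. Ugt8a, a galactosyltransferase gene of myelin lipid synthesis, had a log2 change of 0.01, and the joint probe set of Ugt2a1 and Ugt2a2, enzymes best known from the olfactory epithelium, one of -0.02. Their means of 5.54 and 3.25 lay below the array medians, so a difference could hardly show.

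None of the 6 genes listed under the supply of UDP-glucuronic acid was past the unadjusted threshold. The list includes Uxs1 (log2 change -0.01), whose enzyme consumes UDP-glucuronic acid and does not supply it. Ugdh, which encodes the dehydrogenase that makes this sugar donor, had a log2 change of 0.03 (95% confidence interval -0.19 to 0.24). The smallest p-values of the group were those of Ugp2, which makes the precursor UDP-glucose, with a log2 change of 0.26 (95% confidence interval -0.01 to 0.53), and of Pgm2, a phosphoglucomutase gene, with one of 0.25 (adjusted p = 0.811 from limma). Of the 6 genes listed under the further use of glucuronic acid, Dcxr, a xylulose reductase gene, read 11.08, 11.10 and 11.12 in Trpm6-deficient livers, against 10.64, 10.61, 10.92 and 10.76 in control livers (log2 change 0.37, standard error 0.08, adjusted p = 0.388 from limma). Cryl1, a gulonate dehydrogenase gene, had a log2 change of 0.25 (adjusted p = 0.672), and Gulo, which encodes the last enzyme of vitamin C synthesis, one of -0.14 (adjusted p = 0.688), both from limma. Gusb, the lysosomal glucuronidase gene, had a log2 change of -0.03.

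Transporters of glucuronides showed the widest spread. Slco1a1, a sinusoidal uptake carrier gene, read 11.36, 7.29 and 8.30 in Trpm6-deficient livers, against 12.61, 12.39, 12.19 and 12.44 in control livers (log2 change -3.42, standard error 0.91, adjusted p = 0.50 from limma). Here the order of the mutants was another one than in the Ugt2b genes, with Trpm6-deficient 2 the lowest. Abcg2, a canalicular exporter gene, read 8.48, 8.08 and 8.32 in Trpm6-deficient livers, against 9.38, 9.44, 8.92 and 9.01 in control livers (log2 change -0.89, standard error 0.16, adjusted p = 0.270 from limma). Slco1a4, an uptake carrier gene, was higher, at 11.39, 11.35 and 10.66 in Trpm6-deficient livers, against 9.26, 9.09, 9.56 and 9.75 in control livers (log2 change 1.72, standard error 0.24, adjusted p = 0.132 from limma). In Slco1a1, Abcg2 and Slco1a4 alike the groups did not overlap. Abcc3, which exports glucuronides into blood, showed overlapping groups and a log2 difference of 0.47 (standard error 0.18, adjusted p = 0.691 from limma). Abcc2, which exports them into bile, had one of -0.07 (95% confidence interval -0.24 to 0.11).

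Of 8 regulators measured, Nr1i3, the gene of the xenobiotic receptor CAR, read 10.86, 10.54 and 11.02 in Trpm6-deficient livers, against 9.93, 9.49, 10.27 and 10.08 in control livers (log2 change 0.86, standard error 0.21, adjusted p = 0.429 from limma). For Ahr, the gene of the aryl hydrocarbon receptor, the log2 change was 0.39 (adjusted p = 0.647 from limma), with Trpm6-deficient 1 at 10.23 below control 1 at 10.32. The other 6, among them Nr1i2, Hnf4a and Stat5b, were not past the unadjusted threshold.

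**Figure D4:**
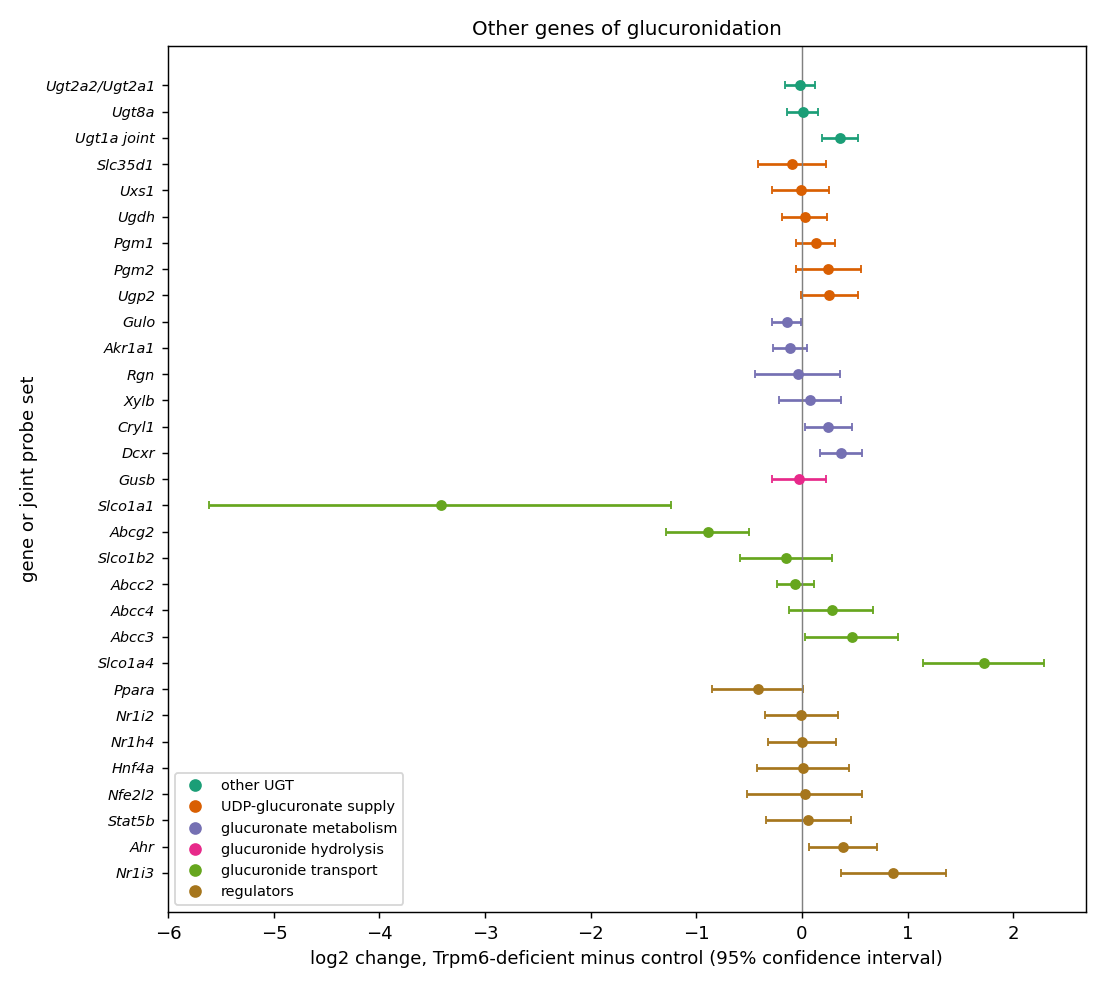
Log2 change (Trpm6-deficient minus control, x axis) with its 95% confidence interval for the 31 other features of glucuronidation (rows), coloured by role and sorted by change within each role. Slco1a1 (-3.42) and Slco1a4 (1.72) lie at the ends, and the joint Ugt1a probe set lies above 0 at 0.36. The intervals of the genes listed under the supply of UDP-glucuronic acid all include 0.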

How the data were processed

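Liver RNA of 3 Trpm6-deficient and 4 control mice was hybridised to GeneChip Mouse Gene 1.0 ST arrays, 1 per mouse. The submitters' processing notes name RMA and Affymetrix Expression Console 1.4.0, in which the authors did background correction, normalization and probe summary. The deposited log2 values carry 2 decimals and were used unchanged. Array values can understate differences among very bright probes, and 7 of the 10 genes had a mean above the 95th percentile of every array. Groups came from the genotype labels. The platform annotation gave 1 gene symbol to 21789 probe sets, several to 1621 and none to 12146. All 35556 probe sets were fitted with limma 3.58.1 in R 4.3.3 without covariates, and p-values were adjusted by Benjamini and Hochberg over all of them. The fit was tested on simulated data. The number of arrays limits the precision. Every gene of the family was named, and in each glucuronidation list the genes at an unadjusted p of 0.05 or less, or otherwise the 2 with the smallest p. Uxs1, Ugdh, Abcc2, Ugt8a, the joint Ugt2a1 and Ugt2a2 probe set, Ppara, Nr1i2, Hnf4a, Stat5b and the single cell type markers fall outside this rule. They were chosen after their values were seen. The members and lists were chosen with earlier results of these data known. Promoters were aligned with Biopython 1.88 (match 2, mismatch -1, gap opening -3, gap extension -1). Alternatives were age as a covariate, a replicate block, a filter on low values, 2 rescalings, another variance prior, the methods' t-test, a stricter threshold, averaged probe sets and leaving out each liver.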

Additional observations from a re-analysis of the deposited data

Results flagged for a closer look

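Within the 4 control livers, the gap of the outermost liver to its nearest neighbour was compared with the whole range for 41 features, and 2 stood out, where chance alone picks about 5% of such groups. Ugt2b37 was at 7.59 in control 3 and between 8.04 and 8.11 in the other controls. The joint probe set that represents Ugt3a1 was at 12.72 in control 2 and between 12.54 and 12.57 in the other controls.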

How the results depend on the processing

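Ugt2b1, Ugt2b37 and Ugt2b38 stayed lower with an unadjusted p up to 0.05 under every alternative, joined by Ugt2b5 under the replicate block (log2 change -0.62, adjusted p = 0.458 from limma). No gene of the family passed at an adjusted p of 0.1 under any alternative. The log2 change ranged from -1.05 to -0.65 for Ugt2b1 (adjusted p 0.165 to 0.804), from -1.16 to -0.71 for Ugt2b37 (adjusted p 0.352 to 0.851) and from -1.17 to -0.74 for Ugt2b38 (adjusted p 0.351 to 0.851). Ugt2a3 turned to -0.01 with arrays centred on their medians and to -0.02 after quantile normalization, and lay between -0.06 and 0.10 when a liver was left out. With a liver left out, Ugt2b36 lay between -0.14 and 0.05 and Ugt3a2 between -0.17 and 0.07, both positive without Trpm6-deficient 3. In the glucuronidation list 1 feature passed with the filter on low values (Slco1a4, adjusted p = 0.0849) and 1 without Trpm6-deficient 1 (Slco1a1, adjusted p = 0.0318), both from limma, and between 0 and 1 did over all omitted livers. Over all probe sets the 46 calls became 8 with age, 1 under the replicate block, 70 with the filter, 8 with the methods' t-test after Benjamini-Hochberg (1863 unadjusted), 14 at the stricter threshold and 7 to 69 when a liver was left out. The labels give same-numbered livers no link beyond the number. Their deviations from the group means correlated at 0.33, 0.26 and 0.09 for numbers 1, 2 and 3. Trpm6-deficient 1 and 2 each correlated best with the control of the same number, and Trpm6-deficient 3 with control 4 (0.23). Whether same-numbered livers share a batch or another factor was not tested.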
